A study of Mus musculus with 9 samples.

Results

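The medium spiny neuron genes described here are 9 genes that mark the projection neurons of the striatum: Drd1, Drd2, Adora2a, Penk, Pdyn, Tac1, Ppp1r1b, Rgs9 and Pde10a. They were chosen by name, and every probe set whose only gene symbol was one of them was taken. The annotation used gave 16 such probe sets, out of 45101 on the array, for 8 of the 9 genes. The array names 18193 genes through probe sets of a single symbol. Adora2a, the adenosine receptor of the indirect pathway, had no probe set of its own in that annotation and was not analysed here. Of the 16 probe sets, 14 passed the filter on dim signals, and all 8 genes kept at least 1. Probe sets 1426033_at of Rgs9 and 1431883_at of Tac1 did not pass.

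Medium spiny neurons are the inhibitory output cells of the striatum and make up most of its neurons. Direct pathway cells carry the dopamine receptor Drd1 and the peptides dynorphin and substance P, and project to the output nuclei of the basal ganglia. Indirect pathway cells carry Drd2 and enkephalin and project to the globus pallidus. In both cell types dopamine acts through cyclic AMP, with DARPP-32, RGS9 and PDE10A as abundant parts of that signalling chain.

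The tissue came from adult male BALB/c mice, with 3 mice and 3 arrays in each of 3 groups. MC+HS mice received BV-HSVtk, a baculovirus (insect virus) vector purified by membrane chromatography and then high-speed centrifugation. HS mice received BV-HSVtk purified by high-speed centrifugation alone. Mock mice received Sf9 insect cell medium without baculovirus that had passed through the MC+HS purification, so HS and mock differ in both vector and purification, which cannot be told apart. Every mouse was injected in the striatum on both sides, the vector groups with 100000000 particles in 10 µL per side, and tissue around the sites was taken at 2 days. The samples are bulk tissue, in which fewer cells of a type and less RNA per cell cannot be told apart.

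The array of HS replicate 1 was unlike the remaining 8. It correlated with them at a median of 0.757 over tested probe sets, where each remaining array reached 0.956 to 0.979. Its log2 signals had a standard deviation of 1.32, and those of the remaining arrays 1.61 to 1.70. Each result is therefore given with all 9 arrays and without HS replicate 1, which leaves 2 HS mice. Median deposited signals ranged from 147 to 264 intensity units, and the values below are scaled signals, in intensity units after each array's median was moved to a common level. On the 8 arrays other than HS replicate 1, the brightest probe sets of the 8 genes lay above 59.6% (Pdyn) to 98.9% (Penk) of their array's probe sets.

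**Figure D1:**
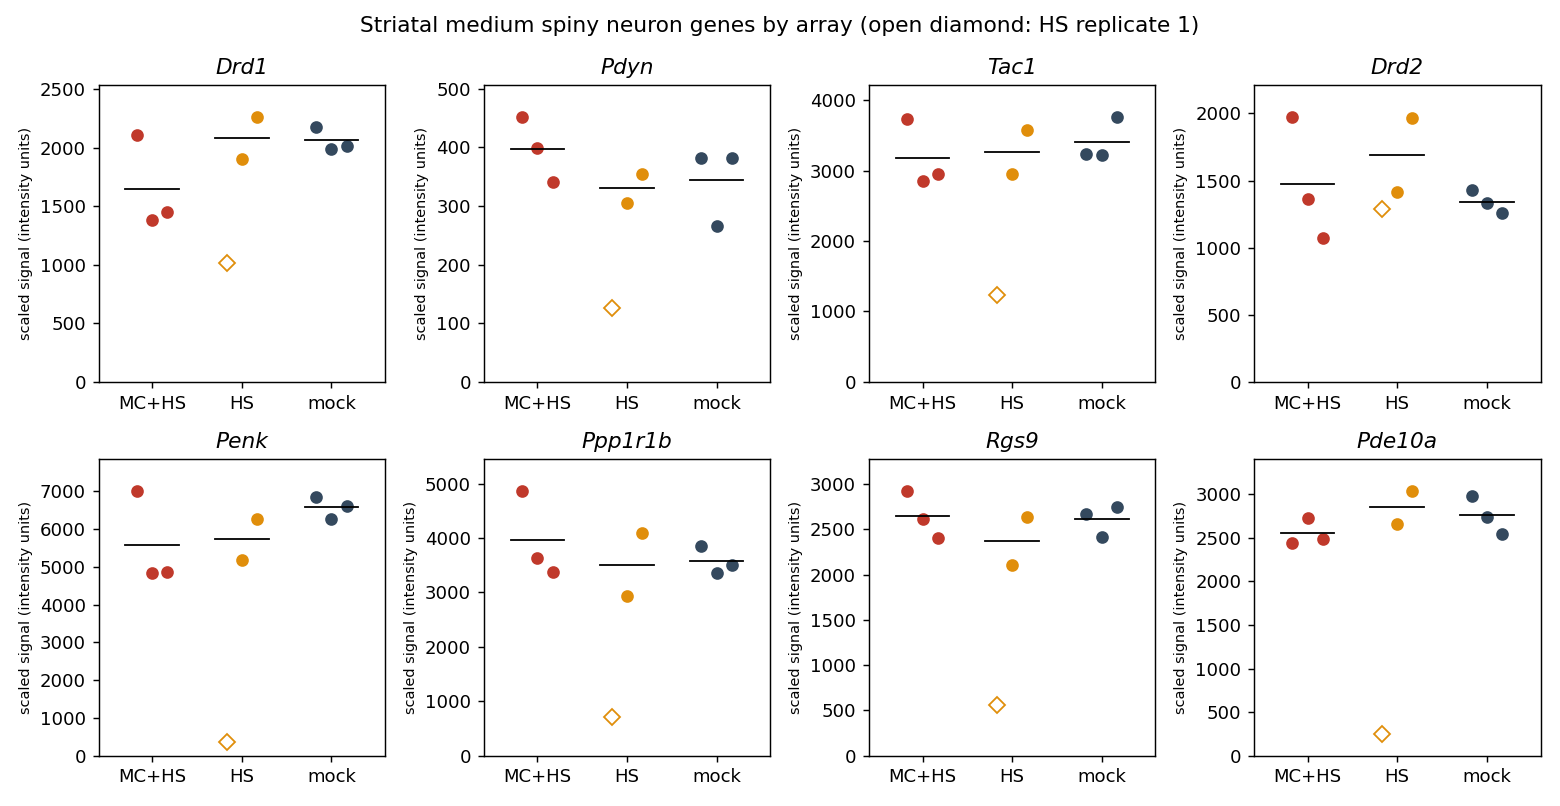
Scaled signal (intensity units, linear axis from 0) of the brightest probe set of each of the 8 genes on every array, with MC+HS left, HS in the middle and mock right. Filled points are single mice, the open diamond is HS replicate 1, and the bar is the group mean, for HS without replicate 1; apart from that diamond the groups overlap in every panel.

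The dopamine receptors did not pass the test in any comparison with all arrays or without HS replicate 1. Drd1, the receptor that stimulates cyclic AMP production in direct pathway cells, read 2106, 1381 and 1447 in MC+HS mice (probe set 1455629_at). It read 1015.5, 1900.4 and 2264 in HS mice, in order of replicate, and 2177, 1989.9 and 2018 in mock mice. A pair of MC+HS mice lay below all mock mice and the third lay among them. The log2 difference MC+HS minus mock was -0.35 ± 0.15 (SE) without HS replicate 1, with a 95% interval of -0.68 to -0.02 (limma, Benjamini-Hochberg adjusted p = 0.312). With all arrays the difference was -0.35 ± 0.33 (limma adjusted p = 0.9999).

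The call on Drd1 depended on how arrays were weighted. Where limma gave each array its own weight, gene by gene, the MC+HS minus mock difference was -0.47 with adjusted p = 0.0404, in a setting chosen after the data were seen. Its other probe set, 1456051_at, read 1479, 1280.5 and 1111 in MC+HS mice, 808, 1486.5 and 1702 in HS mice, and 1560.2, 1501 and 1511 in mock mice. Here all MC+HS values lay below all mock values, at -0.25 ± 0.11 without HS replicate 1 (limma adjusted p = 0.355). For HS minus mock the brighter Drd1 probe set stood at -0.33 ± 0.33 with all arrays and at 0.01 ± 0.17 without HS replicate 1.

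Drd2, the receptor that inhibits cyclic AMP production in indirect pathway cells, read 1976, 1366 and 1076 in MC+HS mice. HS mice read 1286, 1416 and 1966, and mock mice 1431, 1334 and 1259. The MC+HS mice spread to both sides of the mock mice, while HS mice lay within or above the mock range. Over the 8 arrays the highest Drd2 value was 1.84 times the lowest, the widest ratio of the 8 genes. MC+HS minus mock was 0.09 ± 0.19 and HS minus mock 0.31 ± 0.22 without HS replicate 1 (limma adjusted p = 0.893 and 0.577). Drd2 alone of the 8 genes was close to the mock mean on HS replicate 1, at 0.961 times that mean.

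The peptide precursor genes are the ones by which the pathways are most often told apart. Penk, which encodes the enkephalin precursor of indirect pathway cells, read 7024, 4827 and 4862.5 in MC+HS mice. It read 352, 5194 and 6280 in HS mice, and 6848, 6274 and 6625 in mock mice. The MC+HS mean was 5571 ± 1258, the HS mean 3942 ± 3156 and the mock mean 6582 ± 289 (SD, n = 3 each), and the HS mean without replicate 1 was 5737. HS replicate 1 held 0.0558 times the mock mean of Penk, and 0.655% of all tested probe sets lay further below mock on that array.

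Penk differed by -0.26 ± 0.14 between MC+HS and mock without HS replicate 1, and by -0.20 ± 0.15 between HS and mock (limma adjusted p = 0.441 and 0.616). With all arrays HS minus mock was -1.52 ± 0.91 with an interval of -3.58 to 0.53 (limma adjusted p = 0.635). With all arrays, the Penk difference of HS from mock thus rested mostly on HS replicate 1, where the mouse and its array cannot be told apart.

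Pdyn, the dynorphin precursor gene of direct pathway cells, read 452, 398 and 341 in MC+HS mice, 125.5, 305 and 354 in HS mice, and 382, 265.5 and 382 in mock mice. A pair of its mock values coincide and the third is the lowest of the 8 arrays. MC+HS minus mock was 0.21 ± 0.16 without HS replicate 1, with an interval of -0.14 to 0.56, and HS minus mock -0.04 ± 0.18 (limma adjusted p = 0.626 and 0.946). Pdyn was the largest positive MC+HS difference among the 8 genes.

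Tac1, which encodes the precursor of substance P in direct pathway cells, read 3728, 2851 and 2951 in MC+HS mice (probe set 1416783_at). HS mice read 1239.5, 2957 and 3578, and mock mice 3232, 3217 and 3764.5. The groups overlapped with all arrays and also without HS replicate 1. Without that array MC+HS minus mock was -0.11 ± 0.12 and HS minus mock -0.06 ± 0.14 (limma adjusted p = 0.776 and 0.890). The dim Tac1 probe set, which was not tested, read 11.6 to 60.7 over the 9 arrays.

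The balance of direct over indirect pathway genes overlapped between the groups. The mean log2 deviation of Drd1, Pdyn and Tac1 from the mock mean, minus that of Drd2 and Penk, was -0.14, 0.01 and 0.14 in MC+HS mice. It was 0.85, -0.02 and -0.15 in HS mice and -0.02, -0.12 and 0.13 in mock mice. HS replicate 1 lay above the range of the other 8 arrays. Its indirect pathway mean rested on Penk, the brightest of the 8 genes, which deviated by -4.16 there, while Drd2 deviated by -0.06. Bright probe sets were low across that array, as described below.

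Among the signalling genes, Ppp1r1b encodes DARPP-32, the inhibitor of protein phosphatase 1 that relays dopamine signals. It read 4873, 3628 and 3381 in MC+HS mice, 713.5, 2933 and 4093.5 in HS mice, and 3858, 3357 and 3509.9 in mock mice. MC+HS replicate 1 was the highest of all and HS replicate 1 the lowest, at 0.203 times the mock mean. Without HS replicate 1, MC+HS minus mock was 0.13 ± 0.15 and HS minus mock -0.04 ± 0.17 (limma adjusted p = 0.777 and 0.941).

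Rgs9 encodes a GTPase-activating protein that shortens signalling by G proteins, the striatal form of which acts on signalling from D2 receptors. Its brightest probe set, 1418691_at, read 2929, 2612 and 2409 in MC+HS mice, 561, 2111 and 2632 in HS mice, and 2667.5, 2420.3 and 2748 in mock mice. The MC+HS and mock ranges overlapped almost wholly, with a difference of 0.02 ± 0.11 and an interval of -0.22 to 0.26 without HS replicate 1 (limma adjusted p = 0.966). HS minus mock was -0.15 ± 0.12 (limma adjusted p = 0.660). The second tested Rgs9 probe set, 1439635_at, read 899, 594 and 505 in MC+HS mice, 506, 699 and 901 in HS mice, and 790.4, 742 and 852 in mock mice. It placed MC+HS minus mock at -0.29 ± 0.18, so the probe sets of Rgs9 differed in sign, and neither passed the test.

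Pde10a encodes the phosphodiesterase that breaks down cyclic AMP and cyclic GMP in medium spiny neurons, and its 5 probe sets gave unlike results. The brightest, 1439618_at, read 2439.9, 2727 and 2484 in MC+HS mice, 252, 2663 and 3042 in HS mice, and 2984, 2739 and 2547 in mock mice. Apart from HS replicate 1 it was the steadiest of the 8 genes, with a highest value 1.25 times the lowest. Its MC+HS minus mock difference was -0.11 ± 0.09 without HS replicate 1 (limma adjusted p = 0.679).

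Pde10a probe set 1458499_at, singled out after its values were seen, was lower in MC+HS mice than in mock mice. It read 917, 755 and 673.5 in MC+HS mice, 1037.5, 940.5 and 1231 in HS mice, and 1315, 1393 and 1396 in mock mice. Every scaled MC+HS value lay below every HS value, and every scaled HS value below every mock value, HS replicate 1 included. On that array, however, 60.4% of all tested probe sets lay further below mock than 1458499_at did. The order of HS and mock also rested on the scaling. As deposited, HS replicate 3 read 1949.6, above the mock values of 1208.3, 1516 and 1323.5. MC+HS stood at 0.572 times mock without HS replicate 1, a log2 difference of -0.81 ± 0.13 with an interval of -1.10 to -0.51 (limma adjusted p = 0.00595). With all arrays the difference was also -0.81, with SE 0.21 and limma adjusted p = 0.276, so the call was lost.

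Neither other contrast of 1458499_at passed the test. HS minus mock was -0.34 ± 0.15 without HS replicate 1 (limma adjusted p = 0.327), and MC+HS minus HS -0.46 ± 0.15 (limma adjusted p = 0.535). Probe set 1432490_a_at read 755.5, 421 and 544 in MC+HS mice, 342, 524 and 769 in HS mice, and 835, 763 and 878 in mock mice. All of its MC+HS values lay below the mock values, at -0.55 ± 0.20 without HS replicate 1 (limma adjusted p = 0.208), while HS replicate 3 reached into the mock range. The dimmer probe sets 1419389_at and 1419390_at stood at -0.19 ± 0.21 and -0.20 ± 0.31 for MC+HS minus mock, with overlapping groups.

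The Pde10a probe sets also parted on HS replicate 1. There 1439618_at held 0.0969 times the mock mean, while 1432490_a_at held 0.426, 1419389_at 0.379, 1458499_at 0.762 and 1419390_at 0.794 times. The files used here do not place the probe sets on the transcripts of Pde10a, so which transcript forms each one reads was not analysed.

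**Figure D2:**
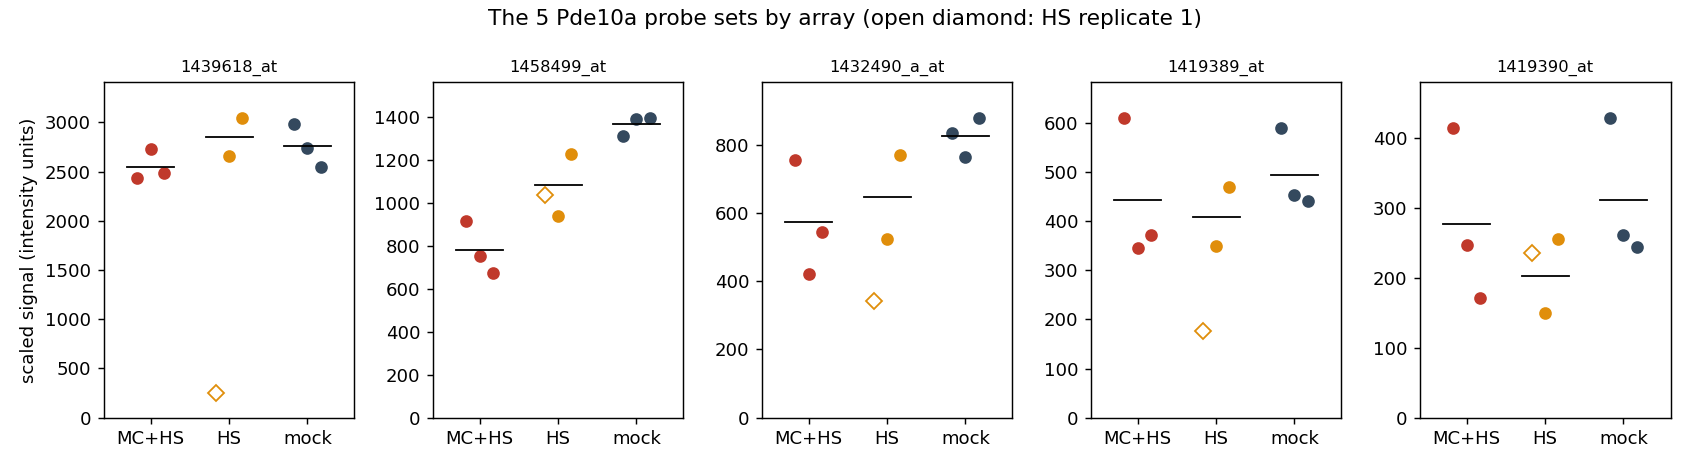
Scaled signal (intensity units, linear axes from 0) of the 5 Pde10a probe sets on every array, MC+HS left, HS in the middle and mock right. Points are single mice, the open diamond is HS replicate 1 and the bar is the group mean, for HS without replicate 1. Only 1458499_at orders the groups without overlap, from 673.5 to 917 in MC+HS mice up to 1315 to 1396 in mock mice. Its order of HS and mock depends on the scaling of the arrays.

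Transcripts of Pde10a begin at more than 1 place. Whether this bears on the unlike results of its probe sets was not tested. The RefSeq table used (GRCm38.p6, mouse chromosome 17, plus strand) holds 2 start sites 48240 bases apart. Each window below runs from 250 bases before the start site to 50 bases after it, with the transcribed bases in capitals.
Pde10a, first start site, chr17:8801495-8801794: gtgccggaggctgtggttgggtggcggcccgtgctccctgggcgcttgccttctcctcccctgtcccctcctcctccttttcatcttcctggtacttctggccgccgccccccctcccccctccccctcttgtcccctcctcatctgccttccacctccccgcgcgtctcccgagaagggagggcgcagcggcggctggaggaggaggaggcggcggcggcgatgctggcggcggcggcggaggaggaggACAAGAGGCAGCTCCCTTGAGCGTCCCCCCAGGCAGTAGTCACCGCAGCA
Pde10a, second start site, chr17:8849735-8850034: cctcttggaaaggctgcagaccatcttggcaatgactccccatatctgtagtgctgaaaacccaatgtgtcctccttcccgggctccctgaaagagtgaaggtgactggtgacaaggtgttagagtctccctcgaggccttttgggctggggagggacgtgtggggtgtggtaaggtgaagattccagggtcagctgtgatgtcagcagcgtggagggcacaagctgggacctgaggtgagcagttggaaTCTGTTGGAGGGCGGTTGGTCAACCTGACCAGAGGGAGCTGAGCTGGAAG
The first window is 71.3% G and C, with runs of GGC and GGA repeats before the start, and the second 56.7%, against a median of 52.7% over 32851 RefSeq windows of this length.

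Each by its brightest probe set, none of the 8 genes was called in any of the 3 comparisons, with all arrays or without HS replicate 1. A dimmer Pde10a probe set, 1458499_at, was called for MC+HS against mock without HS replicate 1. For HS against mock with all arrays, 0.775% of the 28257 probe sets tested were called, and 0 of the 14 medium spiny neuron probe sets, with 0 of the 14 and 1886 of all probe sets (6.67%) at an unadjusted p under 0.05. For MC+HS against mock 0.580% were called and again 0 of 14. At an unadjusted p under 0.05 stood 1 of the 14, beside 1383 of all probe sets (4.89%). For MC+HS against HS limma called 0% of all probe sets and 0 of 14. There 847 of all probe sets (3%) and 0 of the 14 had an unadjusted p under 0.05.

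Without HS replicate 1 more of the array was called, but 1458499_at was the only addition among the 14. HS against mock then had 3.32% of 27973 probe sets called and 0 of the 14. MC+HS against mock had 3.34% called and 1 of the 14. For MC+HS against HS the shares were 0.00357% and 0 of the 14. At an unadjusted p under 0.05 stood 1 of the 14 for HS against mock, beside 14.2% of all probe sets. For MC+HS against mock 3 of the 14 did, also beside 14.2%, and for MC+HS against HS 2 of the 14, beside 7.65%. For MC+HS against mock, 3 of the 14 (Pde10a 1458499_at, Pde10a 1432490_a_at and Drd1 1456051_at) were lower in MC+HS without overlap of the groups, beside 9.84% of all probe sets tested. The comparisons with mock share its 3 mice.

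The median difference of the 8 genes, each by its brightest probe set, was near that of all genes in the limma analysis of scaled signals without HS replicate 1. For MC+HS minus mock it was -0.04, against 0.01 over all genes tested. For HS minus mock it was -0.04, against 0.05, and for MC+HS minus HS -0.05, against -0.05. With all arrays the HS minus mock median was -0.66, against -0.23 over all genes, and the MC+HS minus HS median 0.76, against 0.23. Over the 14 probe sets without HS replicate 1, the MC+HS minus mock median was -0.19, against -0.02 over all probe sets, and 10 lay below 0. It was -0.05, against 0.03, for HS minus mock and -0.11, against -0.05, for MC+HS minus HS.

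The intervals show what these arrays could resolve. Without HS replicate 1, the 95% intervals of the 8 genes, each by its brightest probe set, together spanned log2 -0.68 to 0.56 for MC+HS minus mock. They spanned -0.54 to 0.79 for HS minus mock and -0.72 to 0.64 for MC+HS minus HS. A single gene's interval reached 0.209 to 0.479 to either side, and with all arrays 0.644 to 2.06. Dimmer probe sets could reach further down, such as Pde10a 1458499_at at -1.10 to -0.51 for MC+HS minus mock without HS replicate 1.

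**Figure D3:**
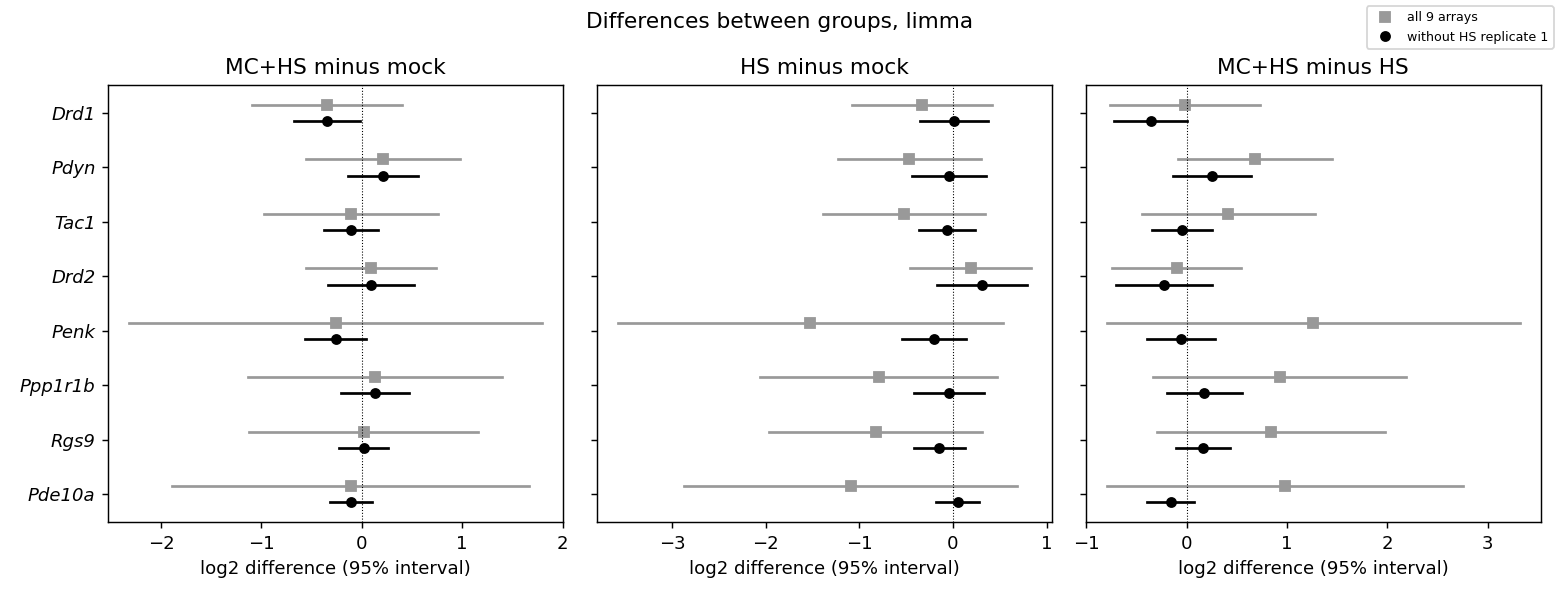
Log2 differences with 95% intervals (limma) of the brightest probe set of each gene for MC+HS minus mock (left), HS minus mock (middle) and MC+HS minus HS (right), with grey squares for all 9 arrays and black circles for the 8 arrays without HS replicate 1. Without that array the points lie between -0.36 and 0.31, and the grey intervals of Penk reach 2.06 to either side.

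The mean of the 8 genes varied from mouse to mouse within each group. Its log2 deviation from the mock mean was 0.21, -0.13 and -0.22 in MC+HS mice, -1.98, -0.17 and 0.14 in HS mice, and 0.07, -0.09 and 0.02 in mock mice. Of the 8 arrays without HS replicate 1, MC+HS replicate 1 held the highest value for 5 of the 8 genes, and HS replicate 3 for 2. MC+HS replicate 2 held the lowest value for 3 genes and HS replicate 2 for 2. The standard deviation over the MC+HS mice exceeded the array-wide median of 0.158 (log2) for 6 of the 8 genes, and that over the mock mice exceeded its median of 0.139 for 1 of the 8, Pdyn.

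General neuronal genes deviated with the same sign on every array but mock replicate 3. The mean of 15 pan-neuronal genes, such as Snap25 and Rbfox3, deviated by 0.11, -0.12 and -0.14 in MC+HS mice, -1.30, -0.03 and 0.03 in HS mice, and 0.06, -0.02 and -0.04 in mock mice. Subtracting it left the medium spiny neuron mean at 0.10, -0.00 and -0.09 in MC+HS mice, -0.68, -0.14 and 0.10 in HS mice, and 0.01, -0.08 and 0.06 in mock mice. The part of dissection, neuron number and array quality in these shifts was not tested.

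On HS replicate 1 bright probe sets were low across the array. The median tested probe set lay 0.61 (log2) below the mock mean and the median of the 2826 brightest 1.67 below. Of the 4 medium spiny neuron probe sets among those 2826, Penk was lower, relative to mock, than all but 5.2% of them, Pde10a 1439618_at than all but 13.2%, Ppp1r1b than all but 35.7% and Tac1 than all but 54.8%.

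Related genes of the same cells were not called either. Of 23 other striatal projection neuron genes tested, 0 were called in any comparison in either analysis, beside at most 3.34% of all probe sets tested. A list this short could hold 0 calls at that share. Their median for MC+HS minus mock was -0.10, with 16 of 23 below 0. The smallest adjusted p in that comparison without HS replicate 1 belonged to Rarb, a retinoic acid receptor, at -0.46 ± 0.12 (limma adjusted p = 0.0768). Rxrg, a retinoid X receptor, followed at -0.44 ± 0.17 (limma adjusted p = 0.259).

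Of 22 genes of dopamine and cyclic AMP signalling tested, 0 were called, again beside at most 3.34% of all probe sets. For MC+HS minus mock 19 of the 22 lay below 0, with a median of -0.13 against 0.01 over all genes. Prkar2b, a regulatory subunit of protein kinase A, stood at -0.34 ± 0.09 without HS replicate 1 (limma adjusted p = 0.0678), and Ppp1r1a, another inhibitor of protein phosphatase 1, at -0.50 ± 0.15 (limma adjusted p = 0.133). For HS minus mock 15 of the 22 lay below 0, with a median of -0.06.

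Markers of other neurons were not called either. The counts were 0 of 11 striatal interneuron genes, 0 of 7 genes of GABAergic neurons, 0 of 15 pan-neuronal genes, 0 of 11 genes of cortical excitatory neurons and 0 of 10 genes of neighbouring regions. At most 3.34% of all probe sets were called, so lists this short could hold 0 calls at that share. The longer lists that mark the pathways, which share members with the 8 genes, gave 0 of 8 for the direct and 0 of 4 for the indirect pathway. Nrn1, a cortical neuron gene, came closest for MC+HS minus mock, at -0.27 ± 0.07 without HS replicate 1 (limma adjusted p = 0.0667).

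Markers of other cell types were called on the same arrays. Without HS replicate 1, 3 of 7 astrocyte genes were higher in MC+HS mice than in mock mice and 4 of 7 in HS mice. Of all probe sets, 3.34% and 3.32% were called in those comparisons. In each of them 1 of the 7 astrocyte genes lay below 0. Gfap, the intermediate filament of reactive astrocytes, rose by 1.28 ± 0.24 in MC+HS mice (limma adjusted p = 0.0146) and by 1.47 ± 0.27 in HS mice (limma adjusted p = 0.0120). Of 7 endothelial genes, Cldn5 and Cdh5 rose in both vector groups and the rest were not called. Of 7 microglial genes, P2ry12, Gpr34 and Siglech fell in both, P2ry12 by 0.998 ± 0.11 in MC+HS mice (limma adjusted p = 0.000621). The other 4 microglial genes were not called and did not share a sign, from Aif1 at 0.72 ± 0.22 (limma adjusted p = 0.135) to Cx3cr1 at -0.25 ± 0.15 (limma adjusted p = 0.490) for MC+HS minus mock, both named after their values were seen. Of 7 oligodendrocyte genes, Cldn11 rose in HS mice.

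With all arrays, 0 astrocyte, endothelial and oligodendrocyte genes were called by limma, while the microglial gene Gpr34 fell in both vector groups and P2ry12 in MC+HS mice.

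On the arrays other than HS replicate 1, the mean levels of 3 of these lists did not overlap between vector and mock mice. Each mean averages genes that differed unlike each other. For MC+HS minus mock with all arrays, astrocyte genes ran from -0.21 (Slc1a2) to 1.28 (Gfap). The astrocyte mean lay 0.40 to 0.58 above the mock mean in MC+HS mice, 0.56 and 0.73 above in HS replicates 2 and 3, and between -0.13 and 0.26 in mock mice. The endothelial mean lay 0.38 to 0.50 above in MC+HS mice, 0.46 and 0.72 above in those HS mice, and between -0.06 and 0.04 in mock mice. The microglial mean lay at -0.22 to -0.51 from the mock mean in MC+HS mice, -0.31 and -0.25 in those HS mice, and between -0.12 and 0.20 in mock mice. On HS replicate 1 the astrocyte, endothelial and microglial means were at -1.35, -0.59 and -1.06. The part of these cells in the neuronal values was not tested.

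**Figure D4:**
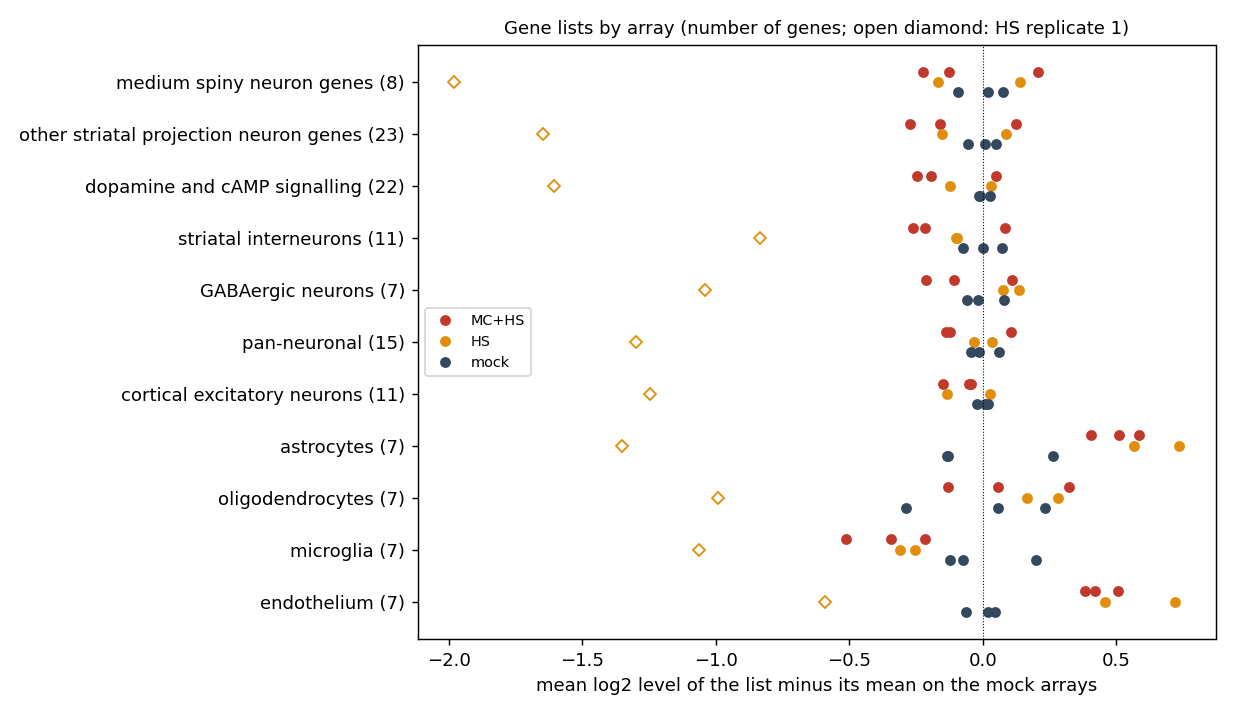
Mean log2 level of each gene list on every array minus its mean on the mock arrays (x axis), with the number of genes in brackets, MC+HS above, HS between and mock below within each list. Points are single mice and the open diamond is HS replicate 1; medium spiny neuron genes range from -0.22 to 0.21 on the other arrays, while the astrocyte and endothelial means of both vector groups lie above mock.

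Of 13331 genes, the 6 whose log2 values over the 8 arrays correlated most with the mean of the 8 genes were Prkar1b, Kcnq5, Rragd, Ap1s1, Olfm1 and Ppif. Pearson's r was 0.985 for Prkar1b, a regulatory subunit of protein kinase A, 0.963 for Kcnq5, a potassium channel subunit, and 0.956 to 0.959 for the other 4. Prkar1b read 6931, 5759 and 5357 in MC+HS mice, 2176, 5639.8 and 6522 in HS mice, and 6340.5, 5971 and 6337 in mock mice. The 8 genes themselves ranged from 0.229 (Pde10a) to 0.867 (Ppp1r1b), though each is part of the mean. With HS replicate 1 included r ran from 0.183 for Ap1s1 to 0.999 for Prkar1b. The points are single mice that share each array's scaling, so r is given as a description.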

How the data were processed

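RNA from brain tissue of 9 mice was hybridized to 1 array each. Per the labels' protocols, Trizol extraction and a column clean-up were followed by biotin labelling of 5 µg. The deposited values are linear intensities, 1 for each of 45101 probe sets on each array, and the submitters' processing notes name GCOS 1.4.0.036. The summary and scaling of the signals are not given in the sources used. The number of arrays limits the precision.

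Intensities were turned into log2(signal + 16), which understates changes of dim genes, and arrays were shifted to share 1 median, by at most 0.66 (HS replicate 3). Scaled signals are those values back on the linear scale. Analysis left out 64 control probe sets and those not above their own array's 40th percentile on at least 3 arrays, which left 28257 (27973 without HS replicate 1). A gene stood for its brightest probe set over the 9 arrays. Platform annotation gave 1 symbol to 34945 probe sets and several to 932, which were left unnamed. All 8 genes matched a RefSeq gene table under the same symbol.

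Groups were compared with limma 3.58.1 in R 4.3.3 (lmFit, eBayes with an intensity trend) in 1 analysis with group as the only term. P-values are two-sided and Benjamini-Hochberg adjusted over all probe sets tested, called under 0.05. The ± after a log2 difference is its standard error. The code was tested on simulated data. The genes described and the other lists were chosen with earlier results of these data known. The rule for named genes took all 9 genes with all probe sets, the called genes of each other list (at most 6), up to 2 with the smallest p where none was called, and the 6 genes most like the mean of the 8. Some of the genes this rule allowed are not named. Promoter windows came from RefSeq, which held windows for 6 of the 8 genes. Alternatives changed the pseudocount, filter, scaling, prior, array weights, probe set summary, replicate block and arrays used.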

Additional observations from a re-analysis of the deposited data

How the results depend on the processing

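Across 27 alternatives, 648 differences of the 8 genes were recomputed and set against the analysis with all 9 arrays. Of these, 581 kept their direction and side of the threshold, 58 changed sign and 9 became called. Part of the 581 could not change direction. Leaving out an array outside a comparison, or changing only the prior, cannot move its difference. Drd1 for HS minus mock, for example, stayed at -0.33 with any MC+HS array left out. Leaving out each array in turn gave these ranges of the log2 difference. For HS minus mock Drd1 ran from -0.56 to 0.01 and Pde10a from -1.71 to 0.049. For MC+HS minus HS Drd1 ran from -0.36 to 0.21, Drd2 from -0.33 to 0.10, Pde10a from -0.16 to 1.60, Penk from -0.059 to 1.99 and Tac1 from -0.044 to 0.71. For MC+HS minus mock Drd2 ran from -0.14 to 0.29, Ppp1r1b from -0.027 to 0.24 and Rgs9 from -0.056 to 0.084, the low ends without MC+HS replicate 1. The called probe sets for MC+HS against mock were 0 to 1, the 1 being Pde10a 1458499_at without HS replicate 1. The direction of Drd1 in MC+HS minus HS changed with any of 4 arrays left out (HS replicates 2 and 3, MC+HS replicates 2 and 3).

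Array weights changed calls. The planned default weights, whose fitting did not converge and gave HS replicate 2 a weight of 48.7, called 3 genes for HS against mock (Penk, Ppp1r1b and Rgs9, lower), 1 for MC+HS against mock (Drd1) and 3 for MC+HS against HS (Drd1, Ppp1r1b and Rgs9). They called 7, 3 and 6 probe sets in that order. Drd2 MC+HS minus mock was then -0.044, and MC+HS minus HS -0.038 for Pde10a and -0.029 for Penk. Gene-by-gene weights, chosen after that result was seen, called 1 gene for MC+HS against mock, Drd1, and 3 probe sets, and 0 in the comparisons with HS. They gave Drd2 -0.064 for MC+HS minus mock and Pdyn 0.0017 for HS minus mock. For MC+HS minus HS they gave Pde10a -0.092, Penk -0.11, Tac1 -0.070 and a median of -0.081.

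Deviations of same-numbered arrays correlated at -0.17 to 0.29. Differently numbered arrays were not set beside them, so these values cannot tell whether the replicate numbers pair the mice. With a replicate block and all arrays 0 genes were called. With the replicate block and without HS replicate 1, 0 genes and 1 probe set (1458499_at, MC+HS against mock) were called. Signs that then changed were Drd1 0.12, Pde10a 0.063, Pdyn 0.048 and Ppp1r1b 0.065 for HS minus mock. For MC+HS minus HS they were Pde10a -0.17, Penk -0.16, Tac1 -0.087 and the median, -0.12.

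Without HS replicate 1 and with values as deposited, HS replicate 3, the array of highest median signal, was no longer scaled down. HS minus mock became 0.45 for Drd1, 0.49 for Pde10a, 0.40 for Pdyn, 0.23 for Penk, 0.40 for Ppp1r1b, 0.29 for Rgs9, 0.38 for Tac1, 0.10 for 1458499_at and 0.40 for the median. MC+HS minus HS became -0.57 for Pde10a, -0.16 for Pdyn, -0.47 for Penk, -0.24 for Ppp1r1b, -0.25 for Rgs9, -0.46 for Tac1 and -0.46 for the median. In that setting 1 gene, Drd2, was called for HS against mock, and 1 probe set in each comparison.

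Further settings without HS replicate 1 gave these changes of sign. With no filter Drd1 was 0.0097 and Pde10a 0.049 for HS minus mock, and Pde10a -0.16, Penk -0.059 and Tac1 -0.044 for MC+HS minus HS. All of these equal the values with the filter and without HS replicate 1, so the filter changed none of these signs. With the mean over probe sets Drd1 was 0.035 for HS minus mock, Rgs9 -0.14 for MC+HS minus mock, and Pde10a -0.069, Penk -0.059, Rgs9 -0.063 and Tac1 -0.044 for MC+HS minus HS. With quantile normalization Pde10a was -0.064 for MC+HS minus HS. Probe set 1458499_at was the 1 called for MC+HS against mock under quantile normalization, with no filter and with values as deposited, each without HS replicate 1, and with only the 6 arrays compared. With all arrays, quantile normalization gave HS minus mock 0.052 for Drd1 and 0.015 for 1458499_at, a pseudocount of 1 gave Drd1 0.0018 for MC+HS minus HS, and the mean over probe sets gave Rgs9 -0.14 for MC+HS minus mock. The cause of these changes was not tested beyond what each setting leaves out. No detection calls were used, so dim signals such as those of Pdyn and 1419390_at carry an unknown share of background.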
